A study of Mus musculus with 79 samples.

Results

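The liver secretes most of the proteins of blood plasma, and 43 genes for such proteins were followed here, out of 15198 gene symbols listed in the series. They were taken by name: 13 coagulation factors of the clotting and contact pathways, 5 inhibitors and fibrinolysis proteins, 12 complement components, 5 apolipoproteins (with Apoh) and 8 carriers. All 43 were listed in each of the 3 liver tables, 33 in the kidney table and 33 in the lung table. The mice were C57BL/6, 3 months old, and breathed either 6% oxygen or synthetic air with 21% oxygen (here "air") for 4 h before tissue was taken. In the light-dark part (LD, 12 h light and 12 h dark), wild-type mice were exposed at ZT4-8 or ZT16-20, hours counted on the light cycle. In the constant-dark part (DD), wild-type (WT) mice and mice labelled Per1,2 double knock-out (KO) had been kept in the dark for 2 days and were exposed at CT4-8 or CT16-20. Beyond the strain name C57BL/6 given above, the labels name no tissue, promoter or background for the knock-out. They name no further allele or agent for any group. LD kidney and lung libraries come from the same mice as LD liver. Each group had 4 mice, 1 library each, except 3 for KO at CT16-20 in 6% oxygen, and libraries are lettered A to D.

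Plasma proteins are made in hepatocytes, which load them into the secretory pathway as they are translated. Clotting factors act as a cascade of proteases that ends with thrombin cutting fibrinogen, a protein built from an alpha, a beta and a gamma chain encoded by Fga, Fgb and Fgg. Many of these genes are read by liver transcription factors of the HNF1, HNF4, FOXA and C/EBP families, and a subset, the acute-phase genes such as Hp, Hpx and the fibrinogen genes, is known to rise when interleukin-6 reaches the liver.

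LD liver libraries held 3009074 to 6744476 counts, DD WT liver 1647816 to 2965022, KO liver 1443279 to 3768161, kidney 2148455 to 3913899 and lung 1649023 to 4349076. The 43 genes took 18.8 to 24.2% of all counts in LD liver, 15.9 to 18.5% in DD WT liver and 15.8 to 23.2% in KO liver, against 0.142 to 0.204% in kidney and 0.297 to 0.425% in lung. All 20 hepatocyte enzyme markers were listed in each liver table with none at 0 in any group. Their summed level ran from 15730 to 42770 CPM (counts scaled to a common library size, the library total adjusted by TMM). For Per1 and Per2 the scale was the library total without that adjustment. Per1 stood at 14.1 to 35.2 CPM in KO libraries and at 16.6 to 86.8 CPM in DD WT libraries. Per2 stood at 4.45 to 32.2 CPM and at 2.82 to 28.1 CPM in the same order, and at CT4-8 in 6% oxygen it was higher in every KO library (17.8 to 31.8 CPM) than in any WT library (2.82 to 10.6 CPM). The deleted parts of the genes are not given in the labels, so these counts did not check the genotype, and KO and WT here stand for libraries labelled so. In bulk tissue, fewer hepatocytes and less RNA per hepatocyte cannot be told apart.

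One library stood apart for more members than any other. In DD WT liver at CT4-8 in air, library A lay outside the range of the other 15 libraries of its table for 23 of the 43 members and for 51.3% of 6016 expressed genes, where the medians over libraries were 3.5 members and 8.96% of genes. It held Alb at 12940 CPM against 35680 to 40940 in libraries B to D, Fgg at 434 against 1956 to 2700, and Hp at 9433 against 4018 to 5405. Results that rest on this group are given with and without it where the call changes. Next, at 16 members each, were LD air library C at ZT16-20 and KO air library B at CT4-8. The LD library lay above all others of its table for 14 members, with 24.0% of 5682 genes outside (median over libraries 11.55%). The KO library lay below all others for 15 members, with 15.6% of 6031 genes outside (median 13.2%). In addition, 3 KO libraries held Saa1, an acute-phase gene, above the highest WT liver library (4164 CPM): A and D at CT4-8 in 6% oxygen, with 10180 and 4856 CPM, and C at CT16-20 in air, with 14750 CPM. The next KO library, A at CT16-20 in 6% oxygen, stood just under that bound at 4151 CPM.

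The sequences just upstream of 5 members that the comparisons turned on are given so that the letters can be read beside the values. They come from RefSeq promoter windows on GRCm38.p6, which matched 32 of the 43 members, and end before the first annotated transcript start. The 3 fibrinogen genes are neighbours within 42.1 kb of chromosome 3 (83007724 to 83049863), Fga and Fgg on the plus strand and Fgb on the minus strand. Capitals mark matches, on either strand, to any of 6 short motifs: GTTAAT (an HNF1 half-site), CAAAGTC (an HNF4 core), CTGGGAA (an interleukin-6 response element), ACGTG (the hypoxia response core), TGTTCT (a glucocorticoid receptor half-site) and TATAAA (the TATA box).
Fga (chr3:83025903-83026075, plus strand): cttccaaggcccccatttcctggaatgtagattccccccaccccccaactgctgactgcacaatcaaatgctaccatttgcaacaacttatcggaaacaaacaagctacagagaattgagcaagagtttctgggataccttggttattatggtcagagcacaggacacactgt
Fgb (chr3:83049864-83050113, minus strand): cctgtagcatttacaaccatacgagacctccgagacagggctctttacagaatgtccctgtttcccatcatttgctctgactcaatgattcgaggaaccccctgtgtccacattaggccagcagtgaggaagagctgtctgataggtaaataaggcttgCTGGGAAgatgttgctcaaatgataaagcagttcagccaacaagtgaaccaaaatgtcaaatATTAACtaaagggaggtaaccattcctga
Fgg (chr3:83007474-83007723, plus strand): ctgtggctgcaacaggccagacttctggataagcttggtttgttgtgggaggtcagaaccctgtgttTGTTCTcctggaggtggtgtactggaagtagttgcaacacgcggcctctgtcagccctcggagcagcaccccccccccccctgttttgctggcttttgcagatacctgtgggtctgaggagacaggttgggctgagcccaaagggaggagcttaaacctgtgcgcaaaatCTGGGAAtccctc
F10 (chr8:13037058-13037307, plus strand): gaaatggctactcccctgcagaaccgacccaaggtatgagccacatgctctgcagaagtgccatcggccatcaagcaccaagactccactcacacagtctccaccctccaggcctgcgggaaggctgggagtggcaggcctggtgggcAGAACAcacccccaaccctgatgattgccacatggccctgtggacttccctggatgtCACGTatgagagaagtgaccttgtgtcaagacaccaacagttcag
F2 (chr2:91636458-91636707, minus strand): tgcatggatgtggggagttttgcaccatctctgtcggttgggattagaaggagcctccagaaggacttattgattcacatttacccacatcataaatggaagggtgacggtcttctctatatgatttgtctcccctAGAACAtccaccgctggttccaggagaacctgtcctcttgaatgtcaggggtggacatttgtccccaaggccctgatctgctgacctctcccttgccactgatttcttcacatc

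The interleukin-6 element was found in the Fgb and Fgg windows and not in the printed Fga window. Over windows of 250 bases upstream, it was found in 3 of 32 members with a window (F9, Fgb and Fgg), a share of 9.38% against 9.1% of all 32851 windows. The HNF1 half-site was found in 7 of the 32 (Alb, C8a, C8b, F13b, Fga, Fgb and Hc), 21.9% against 6.43%. The Fga match lies past the transcript start that GENCODE vM21 gives and is not printed. The hypoxia core was found in 4 (C8g, F10, Rbp4 and Serpind1), 12.5% against 16.6%, and the glucocorticoid half-site in 10, 31.2% against 16.1%. The HNF4 core was found in 3 (9.38% against 3.84%) and the TATA box in 5 (15.6% against 12.4%). A match is a string of letters in a window, not a measured binding site.

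The first question was which plasma protein mRNAs differed in liver after 4 h at 6% oxygen. Fga, the fibrinogen alpha chain, was the recurrent one: it fell in 3 of the 6 oxygen comparisons and had the lowest log2 fold change of all 43 members in 6 of 6, from -0.65 to -2.06. Most other members did not pass the test. At LD ZT4-8, 1 of 43 members was called, F10 higher, where 9.64% of the 9451 genes tested were called (5.43% higher). At LD ZT16-20, 6 were called, all lower, against 20.3% of genes (10.3% lower), and without 6% library C 1 was left, Fga. For DD WT liver, 1 was called at CT4-8, F2 lower, against 11.8% of 8507 genes (6.07% lower), and 1 at CT16-20, Fga lower, against 9.83% (4.55% lower). In KO liver, edgeR and DESeq2 each called 0 at CT4-8, against 5.59% of 8520 genes called by edgeR. At CT16-20 edgeR called 1, Fga lower, against 4.51% (2.11% lower). At CT4-8, 8 members had an unadjusted p under 0.05, and the share of all genes at that threshold was not computed. Without 6% library B, the comparison in KO liver at CT4-8 called Fgb, Fgg, Cfb and Ahsg higher. In each of the 6 comparisons with all libraries the share of members called in either direction was below that of all genes. Counted as lower only, the direction of all calls there, the 6 of 43 at LD ZT16-20 were a larger share than the 10.3% of genes. That difference was not tested, and without 6% library C the count was 1. The median log2 fold change over the members lay within 0.12 of 0 in 5 comparisons and was -0.34 in KO liver at CT16-20. In that comparison 35 of 43 members had a negative sign and the median over all genes was -0.01. Its air libraries held 1443279 to 2020619 counts and its 6% libraries 2796286 to 3768161, so library size and oxygen coincide there. Saa1 stood at 530.5, 2695, 14750 and 2790 CPM in its air libraries (A to D). In its 6% libraries Saa1 stood at 4151, 730.3 and 350.8 CPM (A to C). Whether the sign count rests on library size or on the libraries with much Saa1 was not tested. The LD, DD WT and DD KO tables hold different mice. The air libraries of a table serve in its oxygen, time and genotype comparisons alike, so these share control samples.

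**Figure D1:**
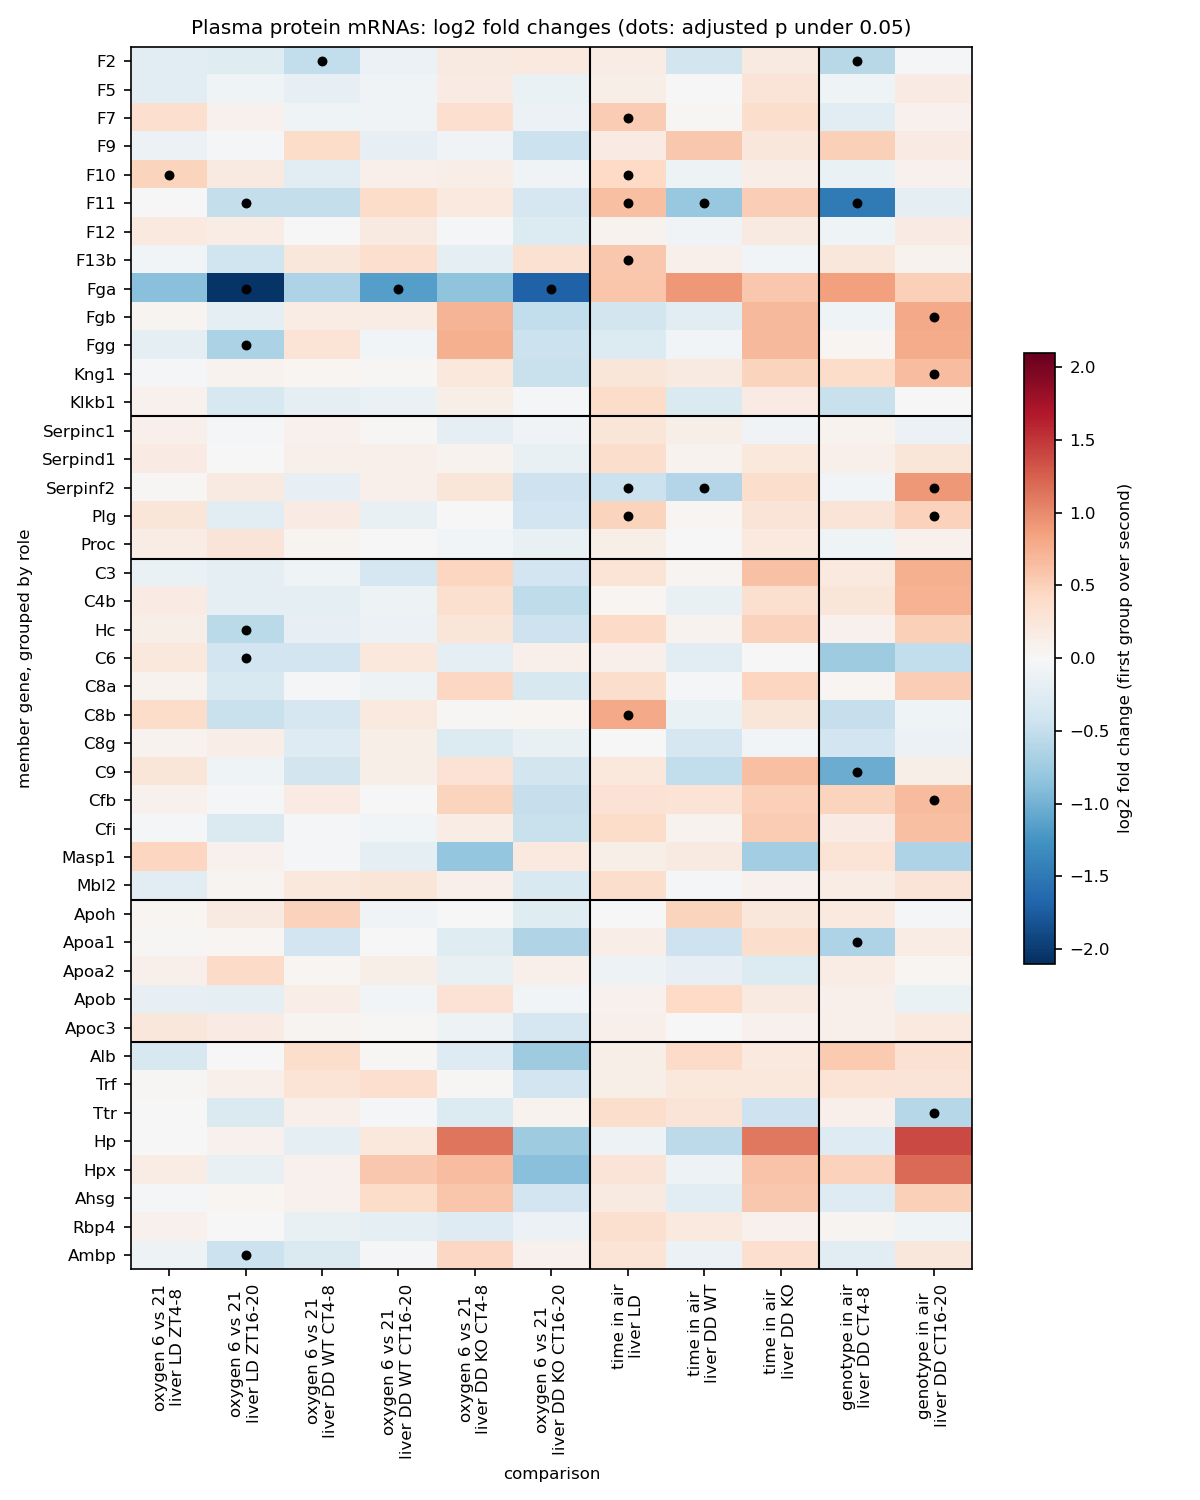
Log2 fold changes of the 43 members (rows, grouped by role) in the 6 oxygen, 3 time-of-day and 2 genotype comparisons (columns), coloured from blue (lower in the first-named condition) to red, with dots where the adjusted p was under 0.05. Fga is blue in all 6 oxygen columns, from -0.65 to -2.06, and most other cells are pale.

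Fga was read library by library. Its median over the LD liver libraries was 279.6 CPM, against 6332 CPM for Fgb and 4226 CPM for Fgg. GENCODE vM21 gives Fga 2 transcripts, which end at 83032263 and 83033627. Counts are per gene symbol, and a shift between these transcript ends was not tested. At LD ZT4-8 Fga stood at 255, 304, 354 and 312 CPM in air (A to D) and at 99.1, 305, 140 and 121 CPM in 6% oxygen. Library B in 6% oxygen lay within the air range and the other 3 below it, and the log2 fold change of -0.89 ± 0.36 (n = 4 and 4) did not pass the test (adjusted p 0.157), but it did when library B was left out. At LD ZT16-20 Fga stood at 426, 305, 580 and 514 CPM in air and at 174, 59.7, 98.1 and 106 CPM in 6% oxygen, with no overlap. It fell by 2.06 ± 0.37 on the log2 scale (n = 4 and 4, adjusted p 0.00163), and the call held without any 1 of the 8 libraries, with values from -1.86 to -2.36. Wild-type liver in constant darkness at CT4-8 held it at 117, 218, 142 and 149 CPM in air and at 173, 60.0, 74.3 and 94.1 CPM in 6% oxygen. Those groups overlapped through 6% library A, and the log2 fold change of -0.65 ± 0.28 did not pass (adjusted p 0.146) unless that library was left out. At CT16-20 in the same table it stood at 264, 246, 420 and 252 CPM in air and at 139, 131, 161 and 97.9 CPM in 6% oxygen. These groups were apart, Fga fell by 1.16 ± 0.28 (n = 4 and 4, adjusted p 0.0108), and the call held without any 1 of the 8 libraries.

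In KO liver at CT4-8 Fga stood at 284, 257, 338 and 245 CPM in air and at 276, 104, 95.6 and 148 CPM in 6% oxygen. The high value was library A, 1 of the 3 with high Saa1. The log2 fold change of -0.85 ± 0.33 did not pass with all libraries (adjusted p 0.177), and Fga was the 1 member called without the 3 high-Saa1 libraries. In KO liver at CT16-20 it stood at 222, 487, 592 and 365 CPM in air and at 160, 125 and 99.6 CPM in 6% oxygen. These groups did not overlap, and Fga fell by 1.70 ± 0.37 (n = 4 and 3, adjusted p 0.0199). Leaving out 6% library A, B or C in turn ended that call, with adjusted p of 0.0532, 0.0761 and 0.0853. The Fga response did not differ between times or genotypes at the threshold: the oxygen-by-time difference was -1.17 ± 0.51 in LD (adjusted p 0.318), -0.51 ± 0.39 in DD WT (0.561) and -0.85 ± 0.49 in KO (0.720), and the oxygen-by-genotype difference was -0.22 ± 0.46 at CT4-8 (0.866) and -0.55 ± 0.48 at CT16-20 (0.769).

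**Figure D2:**
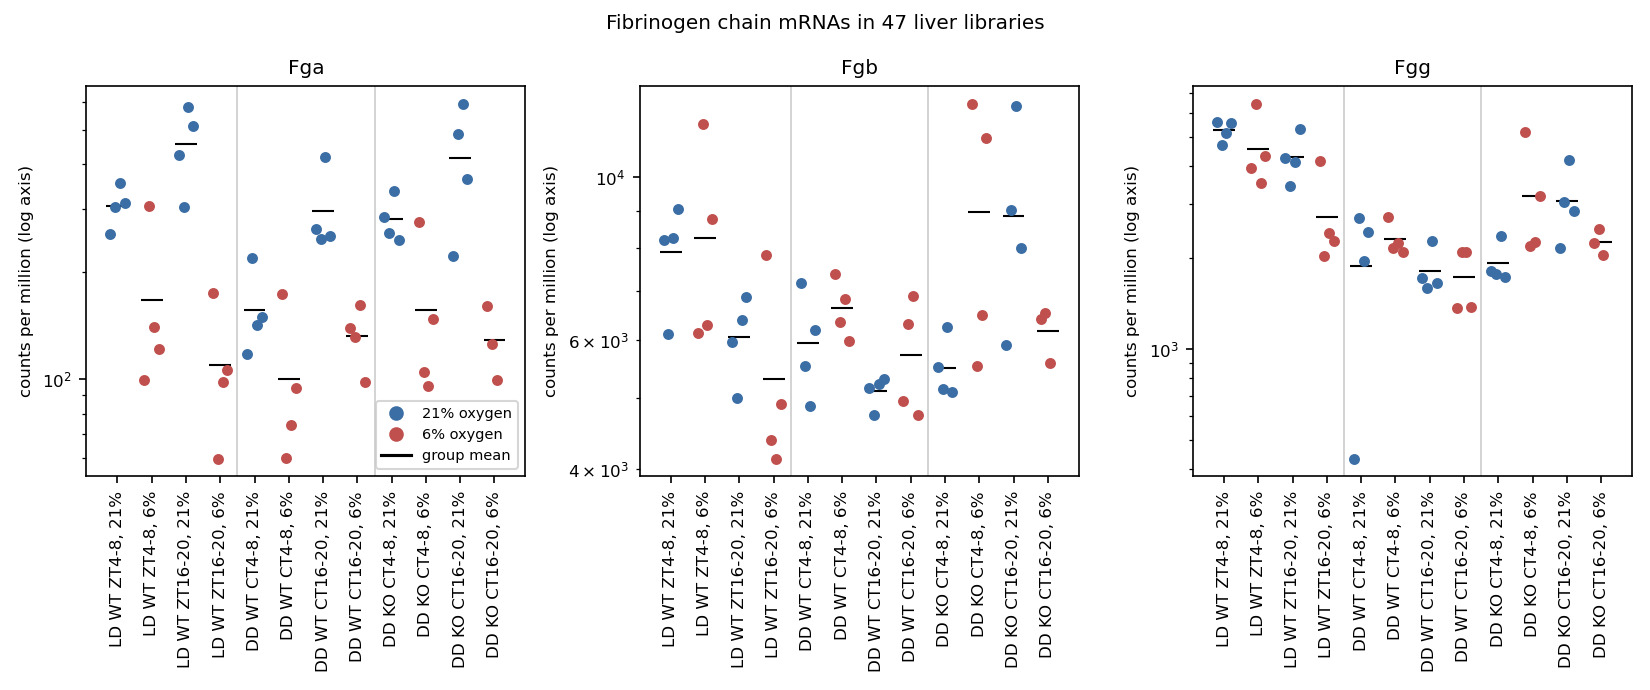
CPM (log axes) of Fga, Fgb and Fgg in the 47 liver libraries, by group, with blue points for air, red points for 6% oxygen and bars at group means. Fga group means are lower in 6% oxygen in all 6 pairs, while Fgb and Fgg points of the 2 oxygen levels mix in most pairs.

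The other fibrinogen chains did not show the same pattern. Fgb, the beta chain, passed the oxygen test in none of the 6 comparisons: its log2 fold changes were 0.06 ± 0.21 and -0.19 ± 0.21 in LD, 0.16 ± 0.15 and 0.16 ± 0.15 in DD WT, and 0.71 ± 0.24 and -0.52 ± 0.26 in KO, each pair at the earlier and the later time. Fgg, the gamma chain, fell at LD ZT16-20 by 0.66 ± 0.21 (adjusted p 0.0314), from 4276, 3450, 4146 and 5322 CPM in air to 4175, 2030, 2404 and 2267 CPM in 6% oxygen. Library A in 6% oxygen overlapped the air range, and 6 of the 8 single-library omissions ended the Fgg call (air A, C or D and 6% B, C or D, adjusted p 0.0533 to 0.0977). Elsewhere Fgg had log2 fold changes of -0.20 ± 0.21 at LD ZT4-8, 0.29 ± 0.37 and -0.06 ± 0.37 in DD WT and 0.75 ± 0.24 and -0.44 ± 0.26 in KO, and passed the test nowhere. Fgg overlaps Gm30097, a noncoding RNA on the opposite strand, and without a stated strand setting their reads cannot be told apart. In all, 15 of the 43 members overlap another annotated gene, 10 of them a protein-coding one, and the called members among them were Fgg, Hc (Gm13449, opposite strand), Plg (Slc22a3, opposite strand) and Cfb (Gm20547, same strand), so the counts of these are uncertain.

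A ratio of counts within a library is free of the scaling between libraries. Fga per 100 Fgb counts ran from 3.11 to 4.98 in air and 1.38 to 2.58 in 6% oxygen at LD ZT4-8, and from 6.09 to 9.09 and 1.37 to 2.37 at ZT16-20. The DD WT ratio ran from 1.64 to 3.95 in air and 0.944 to 2.34 in 6% oxygen at CT4-8, which overlap through the divergent air library A alone (2.41 to 3.95 in air without it), and from 4.74 to 8.04 and 2.07 to 2.81 at CT16-20. In KO liver it ran from 4.81 to 5.41 in air and 1.31 to 2.19 in 6% oxygen at CT4-8, and from 3.76 to 5.40 and 1.79 to 2.49 at CT16-20. The ratio was therefore lower in every 6% library than in any air library in 5 of the 6 pairs, and in 6 of 6 without that library, including the pair in KO liver at CT4-8 that holds both acute-phase libraries. Fgg per 100 Fgb counts was less separated, with 61.4 to 77.0 in air and 49.3 to 64.6 in 6% oxygen at LD ZT4-8, 65.0 to 77.5 and 46.2 to 58.2 at LD ZT16-20, and overlapping ranges in the 4 dark pairs. In DD WT liver at CT4-8 that overlap too came from air library A (6.05): libraries B to D ran from 39.35 to 48.9, against 32.6 to 36.8 in 6% oxygen. The ratios compare libraries, not the amounts of the 2 mRNAs, since counts were not divided by transcript length. They are a description, with no test.

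**Figure D3:**
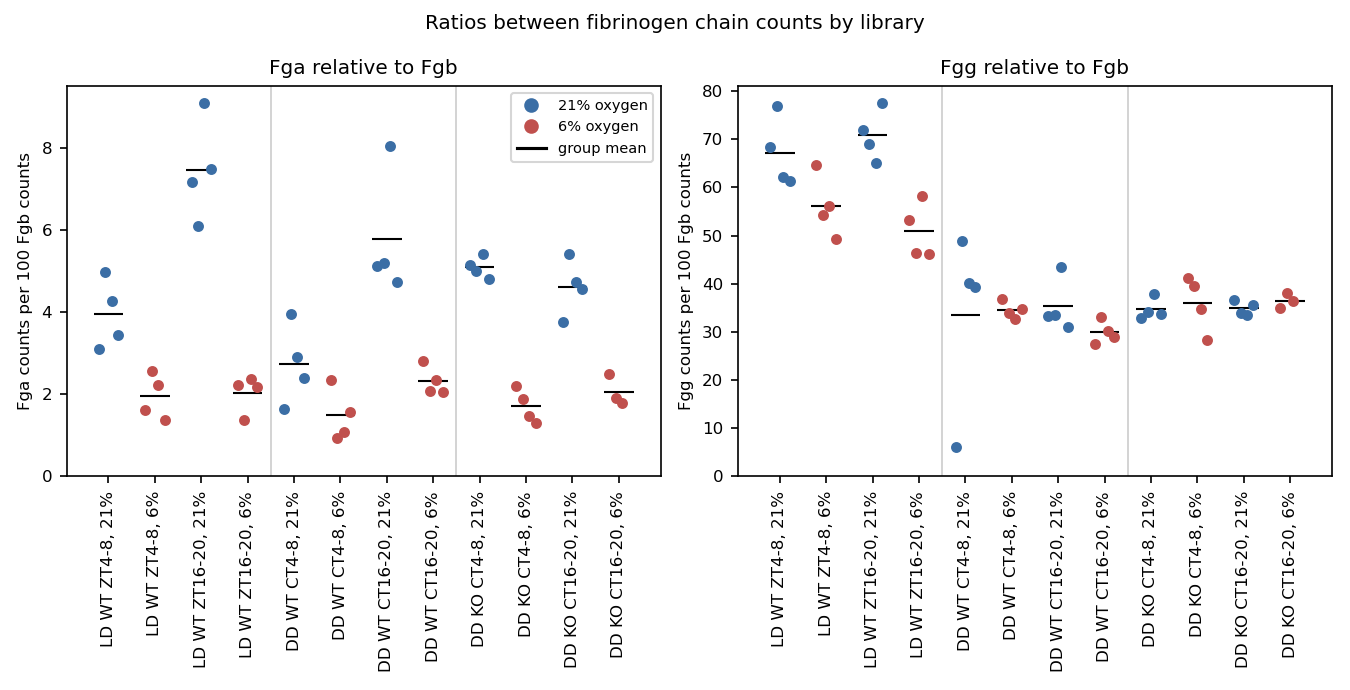
Fga counts (left) and Fgg counts (right) per 100 Fgb counts in each liver library, by group, with blue points for air, red points for 6% oxygen and bars at group means. On the left the red points lie below the blue points of the same time and genotype except in DD WT at CT4-8. On the right 1 air library of that group stands at 6.05.

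Among the other coagulation factors, no gene was called with oxygen in more than 1 comparison. F10, the factor that as Xa converts prothrombin, stood at LD ZT4-8 at 579, 517, 518 and 540 CPM in air and at 705, 846, 723 and 721 CPM in 6% oxygen. The groups did not overlap, F10 rose by 0.48 ± 0.11 (adjusted p 0.00539), and the call held without any 1 of the 8 libraries. It did not pass elsewhere, with log2 fold changes between -0.22 and 0.20. F2, prothrombin itself, stood in DD WT liver at CT4-8 at 2220, 1821, 1861 and 1833 CPM in air and at 1351, 1354, 1447 and 1282 CPM in 6% oxygen. It fell by 0.51 ± 0.13 (adjusted p 0.0156) with no overlap, and leaving out 6% library D ended the call (adjusted p 0.0613). In KO liver at CT4-8 the F2 groups overlapped, with 1306, 1083, 1474 and 1225 CPM in air and 1446, 1382, 1270 and 1709 CPM in 6% oxygen. The difference between the 2 genotypes in F2 response was 0.69 ± 0.20 (adjusted p 0.0517 with edgeR), and DESeq2 called it. F11, the zymogen of factor XIa, fell at LD ZT16-20 by 0.51 ± 0.15 (adjusted p 0.0200), from 102, 124, 121 and 97.7 CPM to 67.3, 88.4, 68.9 and 88.4 CPM. Omission of air library B, 6% library A or 6% library C ended that call (adjusted p 0.0647, 0.0732 and 0.0702).

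F5, F7, F9, F12 and F13b, with the contact-pathway genes Kng1 (kininogen) and Klkb1 (prekallikrein), passed the oxygen test in none of the 6 comparisons. Their log2 fold changes ran from -0.47 (Kng1 in KO liver at CT16-20) to 0.39 (F9 in DD WT liver at CT4-8). Of 19 further coagulation and fibrinolysis genes, 13 or 14 were tested in each fit. Calls with oxygen in that list included Pros1 (-0.51 ± 0.18, lower at LD ZT16-20), and Thbd (1.59 ± 0.30, higher) and Hgfac (-0.70 ± 0.19, lower) in DD WT liver at CT4-8.

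The 5 inhibitors and fibrinolysis genes, Serpinc1 (antithrombin), Serpind1 (heparin cofactor II), Serpinf2 (alpha-2-antiplasmin), Plg (plasminogen) and Proc (protein C), passed the oxygen test in none of the 6 comparisons. Their log2 fold changes lay between -0.44 (Serpinf2 in KO liver at CT16-20) and 0.27 (Proc at LD ZT16-20).

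Of the 12 complement genes, 2 fell with low oxygen, both at LD ZT16-20. Hc, complement C5, fell by 0.57 ± 0.17 (adjusted p 0.0193), with 465 to 687 CPM (median 564) in air and 316 to 559 CPM (median 330) in 6% oxygen, ranges that overlap. C6, which joins C5b in the membrane attack complex, fell by 0.41 ± 0.14 (adjusted p 0.0480), from 170, 191, 156 and 183 CPM to 144, 135, 107 and 142 CPM. Both calls depended on single libraries: 4 of 8 single-library omissions ended the Hc call (air C and 6% B, C or D, adjusted p 0.0595 to 0.0668), and 7 of 8 ended the C6 call (all but air C, adjusted p 0.0589 to 0.161). C6 also missed the threshold with DESeq2 (adjusted p 0.0551), library totals as the scale (0.0514), DESeq2's size factors in edgeR (RLE scaling, 0.0529) and no filter on low counts (0.0632), and was called with the scale set on genes other than the members (0.0496). C8b, another attack-complex subunit, had a response that differed between LD times by -0.86 ± 0.25 (adjusted p 0.0852 with edgeR, called with DESeq2). It stood at 262, 254, 426 and 268 CPM at ZT4-8 in air, at 356, 475, 353 and 399 CPM in 6% oxygen, at 558, 483, 559 and 498 CPM at ZT16-20 in air and at 463, 320, 271 and 460 CPM in 6% oxygen. Air library C at ZT4-8 was the high one of its group, and without it C8b was called higher with oxygen at ZT4-8, and C8b and C6 were called for the difference between times.

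C3, C4b, C8a, C8g, C9, Cfb, Cfi, Masp1 and Mbl2 passed the oxygen test nowhere. Masp1, a lectin-pathway protease, was at only 1.58 to 8.76 CPM in liver, where few counts limit the precision. C4b has a near-identical neighbour, C4a, so its count is uncertain. Of 23 further complement genes, 18 were tested, and those called with oxygen at LD ZT16-20 were 3 lower (C1s1, C4bp and Mbl1, -0.41 to -0.45). Of all genes, 10.3% were lower in that comparison.

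None of the 5 apolipoproteins passed the oxygen test in any comparison with edgeR. Apoh, beta-2-glycoprotein I, which binds anionic phospholipid, stood in LD liver at 2882, 2771, 2246 and 2645 CPM at ZT4-8 in air, 2895, 2895, 2687 and 2318 CPM in 6% oxygen, 2595, 2561, 2332 and 3106 CPM at ZT16-20 in air and 3239, 2973, 3193 and 2627 CPM in 6% oxygen. The DD WT levels were 1075, 2598, 2255 and 2559 CPM at CT4-8 in air, 3161, 2758, 2917 and 3095 CPM in 6% oxygen, 3325, 2896, 2503 and 3044 CPM at CT16-20 in air and 2888, 2686, 3054 and 2599 CPM in 6% oxygen. In KO liver it stood at 2702, 2254, 2454 and 2284 CPM at CT4-8 in air, 2505, 2140, 2482 and 2509 CPM in 6% oxygen, 2921, 3011, 2675 and 2878 CPM at CT16-20 in air and 2102, 2570 and 2554 CPM in 6% oxygen. Apart from DD WT air library A at CT4-8, every liver library held Apoh between 2102 and 3325 CPM. Apob, the core protein of very low density lipoprotein, and Apoa1, Apoa2 and Apoc3 had log2 fold changes between -0.63 (Apoa1 in KO liver at CT16-20) and 0.41 (Apoa2 at LD ZT16-20). Of 16 further apolipoprotein and lipase genes, 14 were tested. Among them Lipc, hepatic lipase, fell at LD ZT16-20 by 0.44 ± 0.13 (adjusted p 0.0178).

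Alb, which encodes the most abundant plasma protein, took 5.32 to 10.1% of all counts in LD liver. It stood at 88420, 90830, 60260 and 88960 CPM at ZT4-8 in air, 71940, 53830, 73520 and 60410 CPM in 6% oxygen, 72780, 79200, 110900 and 93660 CPM at ZT16-20 in air and 78600, 84880, 102000 and 91420 CPM in 6% oxygen. The DD WT levels were 12940, 39820, 35680 and 40940 CPM at CT4-8 in air, 42510, 38440, 42780 and 43630 CPM in 6% oxygen, 47270, 33950, 45390 and 44850 CPM at CT16-20 in air and 44440, 37830, 45990 and 45440 CPM in 6% oxygen. In KO liver it stood at 65250, 33370, 44780 and 42890 CPM at CT4-8 in air, 34900, 39880, 34300 and 45320 CPM in 6% oxygen, 69140, 46720, 54380 and 43700 CPM at CT16-20 in air and 27290, 31970 and 36420 CPM in 6% oxygen. LD libraries ran from 53830 to 110900 CPM, DD WT libraries up to 47270 CPM and KO libraries up to 69140 CPM, and the difference between tables was not tested. The oxygen test called Alb nowhere with edgeR. In KO liver at CT16-20 the 6% libraries all lay below the air libraries, with a log2 fold change of -0.75, and DESeq2 called it.

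Of the other carriers, Ambp, the precursor of alpha-1-microglobulin and bikunin, fell at LD ZT16-20 by 0.45 ± 0.16 (adjusted p 0.0495), from 4631 to 6383 CPM in air to 3421 to 4789 CPM in 6% oxygen. That call was lost in 7 of 8 single-library omissions (all but 6% A, adjusted p 0.0508 to 0.145), and also with RLE scaling (0.0512) and with no filter on low counts (0.0571). Trf (transferrin), Ttr (transthyretin), Hp (haptoglobin), Hpx (hemopexin), Ahsg (fetuin-A) and Rbp4 (retinol binding protein) passed in none of the 6 comparisons. For DD WT liver at CT16-20 the fit without the divergent air library A of CT4-8, which is in neither compared group, also called Trf and Ahsg higher. Trf there ran from 10890 to 15300 CPM in air and from 16310 to 18610 CPM in 6% oxygen, and Ahsg from 8175 to 10580 and from 11240 to 12770 CPM. Hpx, which binds free heme, had the highest log2 fold change of a member there, 0.57 ± 0.23 (adjusted p 0.128), with 8980, 9067, 6307 and 11220 CPM in air and 10360, 19660, 13470 and 9430 CPM in 6% oxygen, which overlap. Of 30 further carriers and inhibitors, 24 or 25 were tested. Agt, angiotensinogen, was the one called higher at both LD times (0.78 ± 0.14 and 0.70 ± 0.14), in DD WT liver at CT16-20 (0.51 ± 0.14) and in KO liver at both times (0.61 ± 0.14 and 0.66 ± 0.15). In DD WT liver at CT4-8 Agt ran from 552 to 712 CPM in air and from 781 to 1043 CPM in 6% oxygen, without overlap. The test of Agt there is not reported here.

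Transcription factors known to act on hepatocyte genes passed the oxygen test in each comparison. Of 20 hepatocyte transcription factors, 19 or 20 were tested, and the counts called higher and lower with oxygen were 1 and 8 at LD ZT4-8, 3 and 5 at LD ZT16-20, 1 and 6 in DD WT liver at CT4-8, 2 and 2 at CT16-20, 2 and 3 in KO liver at CT4-8 and 1 and 2 at CT16-20. The shares of all genes called in either direction were 9.64, 20.3, 11.8, 9.83, 5.59 and 4.51% in that order. The median log2 fold change of the list was -0.45 at LD ZT4-8 and -0.59 in DD WT liver at CT4-8, against -0.01 and -0.02 for all genes, and between -0.19 and 0.04 in the other 4 comparisons. Foxa2, a pioneer factor of hepatocyte genes, was lower in each, with log2 fold changes of -2.53, -3.03, -1.66, -2.51, -2.02 and -1.65 in the same order. Its level at LD ZT16-20 was 27.6 to 57.6 CPM in air and 3.74 to 6.11 CPM in 6% oxygen. Cebpb, a C/EBP factor of the acute phase, rose at both LD times by 1.44 ± 0.18 and 1.52 ± 0.18. Its 6% libraries lay above its air libraries in the dark pairs too. In DD WT liver it ran from 301 to 468 CPM in air and 925 to 1204 in 6% oxygen at CT4-8, and from 473 to 578 and 819 to 982 at CT16-20. In KO liver it ran from 518 to 734 and 933 to 1358 CPM at CT4-8, and from 599 to 851 and 918 to 988 at CT16-20. Of 40 genes of the secretory machinery, 34 or 35 were tested, and those called higher and lower were 0 and 5 at LD ZT4-8, 2 and 5 at LD ZT16-20 (10.3% of all genes were lower there), 1 and 2 in DD WT liver at CT4-8, 0 and 1 at CT16-20, 1 and 0 in KO liver at CT4-8 and 0 and 0 at CT16-20. Mcfd2, a cargo receptor subunit for clotting factors V and VIII, was among the lower ones at both LD times (-0.88 ± 0.17 and -0.62 ± 0.17). Neither list was tested as a list. Whether these changes bear on the members was not tested.

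The second question was which members differed between times of day in air. In LD liver 7 of 43 were called, where 5.91% of all genes were, 6 of them higher (against 3.24%) and 1 lower (against 2.68%) at ZT16-20 than at ZT4-8. The higher ones were C8b (0.79 ± 0.18, adjusted p 0.0100), F11 (0.64 ± 0.15, 0.0128), F13b (0.56 ± 0.17, 0.0484), F7 (0.54 ± 0.12, 0.0114), Plg (0.47 ± 0.12, 0.0248) and F10 (0.41 ± 0.11, 0.0241). Serpinf2 was lower (-0.46 ± 0.13, 0.0422). F7, which with tissue factor starts clotting, ran from 125 to 134 CPM at ZT4-8 and from 176 to 201 CPM at ZT16-20. F11 stood at 61.5, 87.6, 70.3 and 66.0 CPM at ZT4-8 and at 102, 124, 121 and 97.7 CPM at ZT16-20, with no overlap. Of the 43 members 37 had a positive sign, and their median log2 change was 0.21 against -0.01 for all genes tested and 0.12 for the 1202 most expressed. In KO liver between times in air 37 of 43 also had a positive sign (median 0.26 against 0.01 for all genes), and in DD WT liver 20 of 43 (-0.01 against -0.02). In LD, air library C at ZT16-20 lay above all other libraries for 14 members. In KO liver, air library B at CT4-8 lay below all others for 15 members and air library C at CT16-20 above all others for 8. Sign counts without these libraries were not made. F7 and C8b were called without any 1 of the 8 libraries and F11 in all but the omission of ZT4-8 library A (adjusted p 0.0531), while F10, F13b and Serpinf2 lost the call in 6 omissions each and Plg in 5. Scaling by library totals left 3 calls (F7, C8b and Serpinf2), F13b missed the threshold with no filter on low counts (adjusted p 0.0614), and DESeq2 called 10, with Serpind1, Klkb1 and Cfi in addition.

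Between times in air, DD WT liver had 2 members called, against 3.66% of genes (1.86% lower), both lower at CT16-20. F11 fell by 0.79 ± 0.19 (adjusted p 0.0203), from 114, 125, 71.8 and 93.3 CPM at CT4-8 to 50.0, 57.4, 65.3 and 60.1 CPM at CT16-20. Serpinf2 fell by 0.61 ± 0.16 (adjusted p 0.0286), from 459 to 722 CPM to 351 to 436 CPM. F11 thus had opposite directions between times in LD and in DD WT liver, each without overlap, and the difference between the tables was not tested. Both DD calls were lost when CT16-20 library A, B or D or CT4-8 library B was left out, F11 at adjusted p of 0.0528 to 0.0735, and that of Serpinf2 also without CT16-20 library C (0.0572 to 0.0960). Fga had the highest log2 difference there, 0.92 ± 0.27 (adjusted p 0.0687 with edgeR, called with DESeq2). In KO liver 0 members were called by edgeR and by DESeq2, against 0.0235% of genes called by edgeR. There 13 members had an unadjusted p under 0.05, a threshold at which the share of all genes was not computed. The log2 differences farthest from 0 were those of Hp (1.11 ± 0.45, adjusted p 0.567) and Masp1 (-0.73 ± 0.44, 0.689). The differences in oxygen response between times called 0 members in each of the 3 tables with edgeR. Of all genes, 2.06% (LD), 1.62% (DD WT) and 0.0117% (KO) were called. At an unadjusted p under 0.05 there were 7 (LD), 2 (DD WT) and 15 (KO) members. The share of all genes at that threshold was not computed. DESeq2 called 1 (C8b) in LD and 0 in the others. With edgeR, leaving out LD 6% library A at ZT16-20 called Hc, and leaving out DD WT 6% library A at CT4-8 called F11.

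The third question was how KO liver differed from WT liver in constant darkness. Genotype is as labelled, and genotype and table coincide here, so a difference between tables in air cannot be told apart from genotype. At CT4-8 in air, 4 of 43 members were called, all lower in KO liver, against 4.51% of 9011 genes (2.24% lower). F11 was lower by 1.49 ± 0.21 on the log2 scale (adjusted p 2.52e-05), at 39.1, 21.7, 37.8 and 43.7 CPM in KO against 114, 125, 71.8 and 93.3 CPM in WT. C9, the pore-forming complement protein, was lower by 1.03 ± 0.27 (adjusted p 0.0228), at 115, 82.0, 101 and 115 CPM against 147, 328, 157 and 222 CPM. F2 (-0.59 ± 0.14, 0.0101) and Apoa1 (-0.65 ± 0.19, 0.0413) were the others. F11 and F2 were called without any 1 of the 8 libraries, and without WT library A, which stands apart, Apoa1 was not (adjusted p 0.180). Apoa1 was also lost without KO library B or C or WT library D (0.115, 0.158 and 0.0756), and C9 without KO library B or C or WT library B (0.0761, 0.0673 and 0.104). Without WT library C, C6 and C8b were called lower as well, and DESeq2 added C6 and Klkb1.

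At CT16-20 in air, 6 members were called, against 2% of genes, 5 higher (against 0.965%) and 1 lower (against 1.03%) in KO liver. Serpinf2 was higher by 0.92 ± 0.18 (adjusted p 0.00259), with 626 to 955 CPM in KO and 351 to 436 CPM in WT, and kept the call without any 1 of the 8 libraries. The other higher ones were Fgb (0.80 ± 0.20, adjusted p 0.0282), Cfb (0.67 ± 0.18, 0.0385), Kng1 (0.65 ± 0.15, 0.0160) and Plg (0.49 ± 0.13, 0.0409), and Ttr was lower (-0.60 ± 0.14, 0.0197). Kng1 has a near-identical neighbour, Kng2, which was also higher (0.67 ± 0.18, adjusted p 0.0365), so their reads may be split between them. Without the 3 libraries of high Saa1, 2 calls were left, Serpinf2 and Kng1, and without KO library C at CT16-20 alone, 1 was left, Serpinf2. There were 2 calls without KO library B or without WT library A, C or D, 3 without WT library B, 6 without KO library D and 8 without KO library A. Library totals as the scale ended the Plg and Cfb calls (adjusted p 0.0683 and 0.0512), and no filter on low counts ended that of Plg (0.0581). The fit without WT air library A of CT4-8, which is in neither compared group, called 9. F11 in KO liver at CT16-20 (33.0, 61.3, 52.3 and 56.9 CPM) overlapped the WT libraries (50.0 to 65.3 CPM).

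Acute-phase genes varied widely among KO libraries, and members of that class varied with them. Of 23 acute-phase genes that are no members, 10 were higher and 0 lower in KO than in WT liver at CT16-20 in air. Of all genes, 0.965% were higher and 1.03% lower. The median log2 difference of the list was 1.37, against 0.01 for all genes. Its summed level ran from 6927 to 45210 CPM in the KO libraries, library C of high Saa1 among them, and from 5315 to 6096 CPM in WT. The list count was not repeated without library C. Hp stood in KO liver at 3657, 4673, 4987 and 5747 CPM at CT4-8 in air, 14860, 4127, 6295 and 16420 CPM in 6% oxygen, 5206, 10960, 17700 and 7296 CPM at CT16-20 in air and 7871, 6080 and 4373 CPM in 6% oxygen. The 3 highest values were those of the 3 libraries with high Saa1. Hpx stood at 12840, 9704, 17300 and 13040 CPM at CT4-8 in air, 27840, 7836, 12540 and 34330 CPM in 6% oxygen, 11940, 21880, 32050 and 14620 CPM at CT16-20 in air and 15220, 10240 and 7487 CPM in 6% oxygen, again highest in those 3 libraries. Fgb was also highest in them, at 12600, 11300 and 12520 CPM. Of the 3, 2 were in 6% oxygen at CT4-8 and 1 in air at CT16-20. Hp had a log2 change with oxygen of 1.13 ± 0.45 at CT4-8 (adjusted p 0.184), and of 0.13 ± 0.29 (0.879) without the 3 libraries. Hpx had one of -0.87 ± 0.48 at CT16-20 (adjusted p 0.369), and of -0.56 ± 0.30 (0.365) without them, so neither passed in either fit. Between genotypes at CT16-20 in air, Hp had a log2 difference of 1.38 ± 0.40 (adjusted p 0.0702) and Hpx of 1.18 ± 0.37 (0.103), which edgeR did not call and DESeq2 did. Without the 3 libraries these were 0.98 ± 0.31 (adjusted p 0.135) and 0.85 ± 0.27 (0.138). WT libraries of the DD table ran from 2432 to 4764 CPM of Hp and from 6307 to 11220 CPM of Hpx at CT16-20 in air.

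Neutrophil genes, which are read in another cell type that also makes haptoglobin, moved with the same libraries. In the 3 libraries S100a8 stood at 17.9, 17.4 and 21.8 CPM and S100a9 at 31.04, 40.71 and 41.37 CPM, against at most 11.83 and 13.96 CPM in the other KO libraries. The summed level of the neutrophil list (7 of 10 genes listed in the KO table) ran from 3.17 to 12.0 CPM at CT4-8 in air, 14.7 to 86.8 CPM in 6% oxygen, 7.38 to 121 CPM at CT16-20 in air and 8.25 to 18.1 CPM in 6% oxygen, and at CT4-8 in air 1 listed gene was at 0. Where 2 of the 10 were listed, in DD WT liver, it ran from 0 to 12.3 CPM. Their part in the Hp and Hpx values was not tested. The oxygen response of members did not differ between genotypes at the threshold with edgeR at either time. Of all genes, 2.42% were called at CT4-8 and 0.0444% at CT16-20. At an unadjusted p under 0.05 there were 6 and 11 members, and the share of all genes at that threshold was not computed. DESeq2 called 1 at CT4-8 (F2) and 0 at CT16-20. With edgeR, F2 was also called there without KO air library C, KO 6% library B or KO 6% library C.

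**Figure D4:**
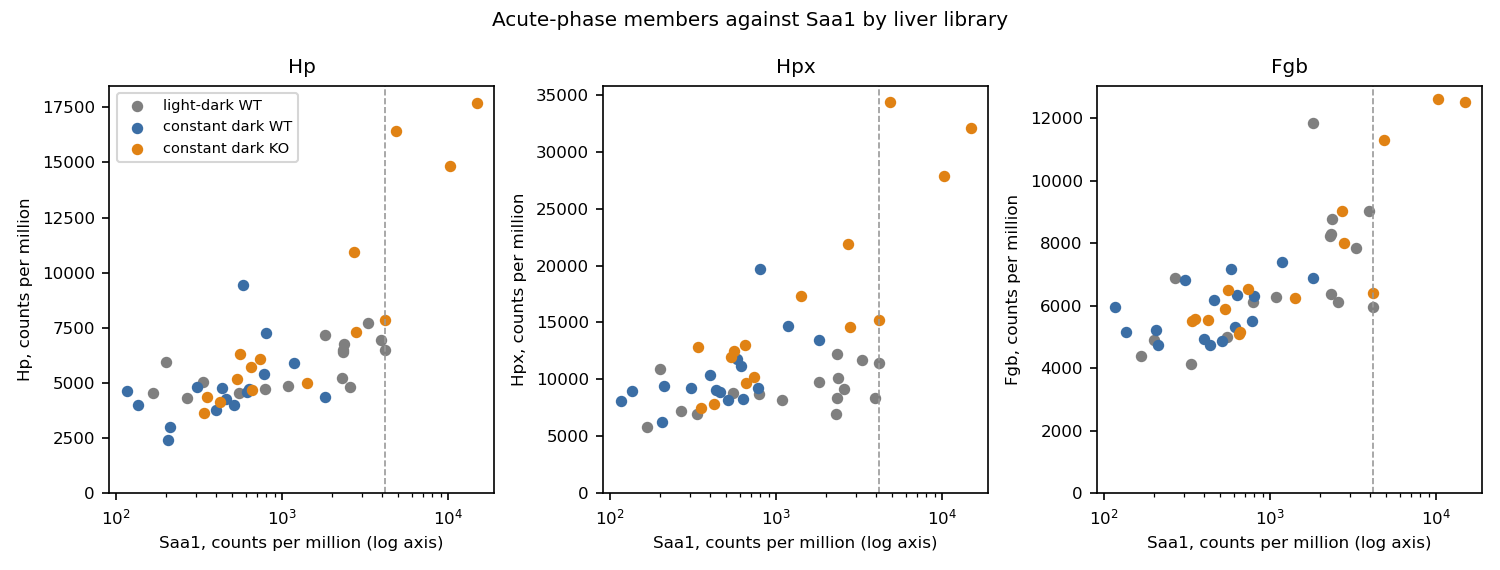
Hp, Hpx and Fgb (CPM, vertical) against Saa1 (CPM, log axis) in the 47 liver libraries, grey for light-dark WT, blue for constant-dark WT and orange for constant-dark KO, with a dashed line at the highest WT Saa1 of 4164. The 3 orange points right of the line hold the highest Hp and Hpx values.

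Alb and Apoh were also read in kidney and lung, where neither is a marker of the tissue. Whether their counts there came from liver transcripts was not tested. In kidney, Alb counts were 93, 70, 97 and 38 at ZT4-8 in air, 74, 57, 55 and 182 in 6% oxygen, 178, 118, 68 and 98 at ZT16-20 in air and 151, 121, 90 and 28 in 6% oxygen. Apoh counts in the same order were 71, 61, 62 and 45, then 83, 59, 70 and 55, then 29, 54, 30 and 47, then 37, 67, 46 and 22. The median Alb level in kidney was 26.9 CPM, 0.0328% of the LD liver median, and that of Apoh was 16.2 CPM, 0.595%. The libraries with most Alb were thus not those with most Apoh.

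In lung, Alb counts were 69, 65, 82 and 522 at ZT4-8 in air, 20, 14, 162 and 49 in 6% oxygen, 97, 39, 74 and 71 at ZT16-20 in air and 28, 42, 3 and 14 in 6% oxygen. Apoh counts were 3, 2, 5 and 20, then 0, 1, 0 and 0, then 6, 3, 4 and 7, then 1, 1, 1 and 0. A count of 0 allows up to 3 counts. Library D at ZT4-8 in air held most of both, and also 63 counts of Apoa1, 81 of Fgb and 42 of Mup3, a gene of the hepatocyte list. Apoh per 100 Alb counts ran from 2.102 to 5.378 in LD liver and from 4.14 to 8.53 in the dark tables, had a median of 4.09 in lung (0 to 33.3), and ran from 16.3 to 127 in kidney. Every kidney library thus lay above every liver library in this ratio. Apoh overlaps Prkca on the opposite strand, and without a stated strand setting reads of the 2 genes cannot be told apart. Transcripts of the other organs were also present at low counts: the lung gene Sftpc at 1 to 59 counts in kidney and 1 to 21 in LD liver, and the kidney gene Umod at 0 to 38 counts in lung and 0 to 58 in LD liver.

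**Figure D5:**
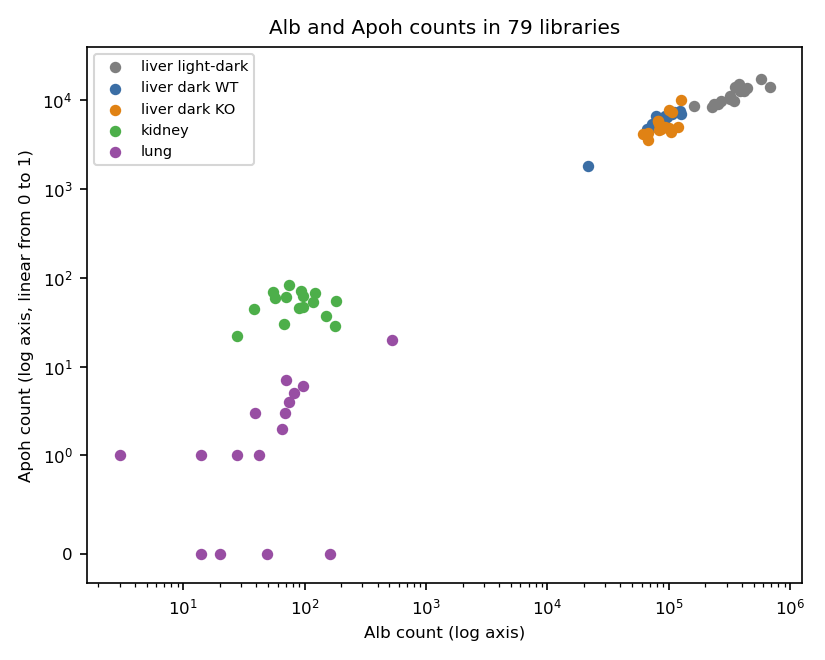
Apoh count against Alb count (both axes logarithmic, the Apoh axis linear between 0 and 1) in all 79 libraries, coloured by tissue and table. Kidney points (Alb 28 to 182) lie at Apoh 22 to 83, above most lung points of similar Alb (Apoh 0 to 20).

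Some members were measured in kidney or lung far above the level of Alb relative to liver. Of the 33 members listed in kidney, 4 had medians above 10% of their LD liver median: F13b (57.9 CPM, 84.2%), Serpinf2 (206 CPM, 54.2%), Proc (253 CPM, 39.5%) and Cfb (589 CPM, 34.0%). Ttr stood at 450 CPM, 2.63% of liver, and at 724 to 3918 per 100 Alb counts against 16.3 to 31.6 in LD liver. In lung 6 of 33 were above 10%: Hc (330 CPM, 72.5%), Hp (1348 CPM, 24.2%), F7 (40.4 CPM, 23.1%), C4b (194 CPM, 22.5%), C3 (849 CPM, 22.2%) and C6 (19.8 CPM, 12.7%). Under 1% of liver were 20 of the 33 in kidney and 22 of the 33 in lung. F9, F11, C8b, C9 and Masp1 were among those listed in neither organ's table.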

How the data were processed

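The deposited tables hold whole-number read counts per gene symbol and library. Per the submitters' processing notes, bcl2fastq, cutadapt, STAR and HTSeq were used with the mm10 build; their versions, the gene annotation, the strand setting and any use of molecular identifiers: not given in the sources used here. Per the labels' protocols, cDNA was equalised by Actin B qPCR, pooled and amplified by in vitro transcription.

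Each of the 3 liver tables was fitted alone with edgeR 4.0.16 (R 4.3.3): filterByExpr with a minimum count of 10, TMM scaling, robust quasi-likelihood tests, and Benjamini-Hochberg adjustment over every gene tested. Calls were made below an adjusted p of 0.05. Genotype was tested in 1 joint fit of both dark tables. Levels (CPM) are counts scaled to a common library size, with each library total adjusted by its TMM factor. Those of Per1 and Per2 were scaled by the library total without that factor. The ± after a log2 fold change is its standard error, taken from the F statistic. The code was tested on simulated data. All 43 members passed the filter in every fit. The members and the other gene lists were chosen with earlier results of these data known. Named outside the members were at most 3 genes per list and comparison, by smallest p. Some genes that this rule names are not reported here. DESeq2 1.42.0, other scalings, no filter, a replicate block and leaving out libraries were alternatives. The limit of 3 counts that a 0 allows covers counting error only.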

Additional observations from a re-analysis of the deposited data

Results flagged for a closer look

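Among the 14 members shown library by library, 154 groups of 4 liver libraries were screened for a library far from the other 3, and 13 were found, where about 7.7 would be found by chance. In LD liver these were Alb in library C at ZT4-8 in air (60260 CPM, others 88420 to 90830), C8b and C6 in the same library (426 CPM, others 254 to 268, and 211 CPM, others 142 to 150), F10 in library B at ZT4-8 in 6% oxygen (846 CPM, others 705 to 723), C9 in library A at ZT16-20 in 6% oxygen (288 CPM, others 140 to 158) and Masp1 in library A at ZT16-20 in air (5.16 CPM, others 2.67 to 2.93). In DD WT liver they were Fga in library C at CT16-20 in air (420 CPM, others 246 to 264), F2 in library A at CT16-20 in 6% oxygen (1650 CPM, others 1230 to 1301), F2 in library A at CT4-8 in air (2220 CPM, others 1821 to 1861) and Hp in library A at CT4-8 in 6% oxygen (5905 CPM, others 4628 to 4820). In KO liver they were Fgg in library C at CT4-8 in air (2360 CPM, others 1720 to 1810.0), Apoh in library B at CT4-8 in 6% oxygen (2140 CPM, others 2482 to 2509) and F2 in library D at CT16-20 in air (1789 CPM, others 1285 to 1370).

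In 5 cases the groups of 1 contrast were apart in opposite directions in 2 tables, given here as log2 ratios of group means. The share of all genes that meet the same rule was not computed, so the 5 cases are a description only. F11 with oxygen at the later time was -0.504 in LD and 0.396 in DD WT liver, a difference of 0.90. F11 between times in air was 0.637 in LD and -0.797 in DD WT, a difference of -1.43. Serpinf2 between times in air was 0.377 in KO against -0.455 in LD (a difference of 0.831) and -0.609 in DD WT (0.986). These 4 differences were not tested. Trf with oxygen at CT16-20 was 0.359 in DD WT and -0.41 in KO, a difference of -0.77, and the test of that difference did not pass (adjusted p 0.378).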

How the results depend on the processing

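No direction reversed among the 29 called member values: under alternatives other than leaving out 1 library, 163 of 192 values stayed called and 29 missed the threshold, and leaving out 1 library kept 135 of 231. Counts of members called that moved by more than 1.5 times under those alternatives are given first. Library totals in place of TMM left 3 for time of day in LD air and gave 1 (F2) for oxygen by genotype at CT4-8. DESeq2 gave 1 for oxygen by time in LD, 4 for time in DD WT air, 2 for oxygen in KO at CT16-20 and 1 for oxygen by genotype at CT4-8. The fit without the 3 high-Saa1 libraries, chosen after seeing the data, gave 1 for oxygen in KO at CT4-8 and 2 for genotype at CT16-20. The fit without DD WT air library A, also chosen then, gave 3 for oxygen in DD WT at CT16-20. Smaller moves were from 6 to 4 or 5 for oxygen at LD ZT16-20, from 7 to 5, 6 or 10 for time in LD air, from 4 to 3, 5 or 6 for genotype at CT4-8 and from 6 to 4, 5 or 9 for genotype at CT16-20. The replicate letters did not pair the mice (median correlation of same-letter deviations -0.0346 in LD, -0.0142 in DD WT), and the replicate block left 0 calls for genotype at CT16-20 (Serpinf2 at adjusted p 0.291) and did not call C6 and Ambp with oxygen at LD ZT16-20 (0.0740 and 0.0711), F13b and Serpinf2 for time in LD air or C9 for genotype at CT4-8. Leaving out 1 library gave 1 to 2 members for oxygen at LD ZT4-8, 1 to 7 at LD ZT16-20, 0 to 3 in DD WT at CT4-8, 0 to 4 in KO at CT4-8, 0 to 1 in KO at CT16-20, 3 to 5 for time in LD, 0 to 2 for time in DD WT, 2 to 6 for genotype at CT4-8 and 1 to 8 at CT16-20, 0 to 2 for oxygen by time in LD, 0 to 1 in DD WT and 0 to 1 for oxygen by genotype at CT4-8. The causes of these changes were not tested. Low counts limit Masp1 in liver and Alb and Apoh outside it.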
